A study of Mus musculus with 13 samples.

Results

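The genes described are Ctsg and 4 neighbouring granule protease genes of mouse chromosome 14, Mcpt8, Gzmb, Gzmc and Cma1. Their members on the array were the probe sets that the probe-to-gene table lists with exactly 1 of these genes. There were 46 such probe sets of 229581 in the deposited table: 10 for Ctsg, 6 for Mcpt8, 8 for Gzmb, 7 for Gzmc and 15 for Cma1. No probe set was listed with a member and a further gene (n = 0). The 5 genes are 5 of 16296 genes with a probe set.

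The arrays measured RNA of flow-sorted bone marrow cells from mCG-PR mice, in which the PML-RARA fusion of acute promyelocytic leukaemia is expressed from the murine Ctsg locus, and from wild-type (WT) littermates, all of the strain given as Bl/6 Taconic. KLS cells are lineage-negative, Kit-positive, Sca1-positive stem and progenitor cells, and SLAM cells are a smaller compartment enriched for stem cells through SLAM receptors. WT KLS cells came from 4 mice, aged 12 or 13 weeks. The mCG-PR KLS cells came from 3 mice aged 6 weeks and 2 aged 13 weeks, WT SLAM cells from 2 mice aged 6 weeks, and mCG-PR SLAM cells from 2 aged 7 weeks, each on an array of its own. The label of the mCG-PR mice adds N17, and the labels do not state how much Ctsg messenger the modified allele still makes. A Ctsg probe set therefore cannot be assigned to either allele.

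The granule proteases of this cluster are serine proteases that blood cells store in an active form and release or use inside the cell. Cathepsin G, the product of Ctsg, belongs to the primary granules of neutrophil precursors. Mcpt8 is a protease of basophils, Gzmb and Gzmc encode granzymes of cytotoxic lymphocytes, and Cma1 encodes a chymase of mast cells. The genes lie in a single cluster that arose by gene duplication, and each lineage uses a different part of it.

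The arrays differed in ways that touch these genes. Median intensity per array lay between 98.6 and 115.3. Cd48, whose absence is part of the SLAM sort, had a mean log2 value of 5.13 in WT SLAM against 8.83 in WT KLS. Slamf1 had one of 7.58 against 5.87, while Kit was near 10 in both (9.90 and 10.14). In mCG-PR SLAM the means were 4.25 for Cd48, 6.42 for Slamf1 and 10.4 for Kit, so the SLAM groups were not alike in these markers. WT SLAM replicate 2 stood apart, with a mean log2 value of 10.24 over 11 late neutrophil genes against 8.24 in replicate 1. The mean of the Y-linked genes Eif2s3y and Kdm5d was 4.23 to 4.53 on 3 arrays, both of mCG-PR SLAM and replicate 3 of mCG-PR KLS of 6 weeks, and 7.67 to 8.48 on the other 10. In bulk samples such as these, fewer cells of a type and less RNA per cell cannot be told apart.

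All 5 members are on the minus strand of the RefSeq assembly GRCm38.p6, in the order Cma1, Mcpt8, Ctsg, Gzmc and Gzmb, and Mcpt8 is the named protein-coding gene on one side of Ctsg. The sequence below shows the 250 bases that precede the start of Ctsg, the locus from which the fusion is expressed. It was read 5′ to 3′ on the minus strand from chr14:56102575-56102824 (GRCm38.p6, RefSeq), and the capitals mark matches to 3 searched motifs. These are AGGAAG, a core of Ets factors such as PU.1, TGTGGT, a core of RUNX factors (ACCACA on the other strand), and CAACTG, a core of MYB (CAGTTG on the other strand).
Ctsg: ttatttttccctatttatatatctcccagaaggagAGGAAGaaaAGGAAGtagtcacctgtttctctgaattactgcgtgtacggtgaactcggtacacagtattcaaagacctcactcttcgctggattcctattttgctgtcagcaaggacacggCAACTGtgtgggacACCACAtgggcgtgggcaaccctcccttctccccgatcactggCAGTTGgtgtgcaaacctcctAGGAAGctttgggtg
Ctsg held AGGAAG at 3 places, CAACTG at 2 and TGTGGT at 1. Of Mcpt8, 3 stretches of 30 bases around its matches are shown, since its window overlaps a longer listed transcript; they start 5′ to 3′ at chr14:56085368-56085397, chr14:56085319-56085348 and chr14:56085200-56085229, on the minus strand of the same assembly.
Mcpt8, RUNX: tcctgtggggaaTGTGGTcatgctcaccag
Mcpt8, RUNX: tcctgtacagtcACCACAcagatgtggcaa
Mcpt8, MYB: taacaaagtggcCAACTGagacctggtcag
Over the 5 members, 3 windows of 250 bases held AGGAAG, 4 held TGTGGT and 3 held CAACTG, on either strand. Of 32851 promoter windows of the same length in the table, 29.5% held AGGAAG, 4614 held TGTGGT and 11.1% CAACTG. TTGCNNAA, a core of C/EBP factors (9.56% of windows), and AGATAA, a core of GATA factors (9.99%), were in 0 of the 5 windows. Such matches are short and describe letters, not bound sites.

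The first question was whether the genes of the locus that carries the fusion differed between mCG-PR and WT KLS cells. Ctsg did not pass the test, and Mcpt8 had the largest positive change of 10584 tested genes but did not pass either. Gzmb, Gzmc and Cma1 were below the level at which genes were tested. A gene's value is the median log2 intensity of its probe sets. Genes entered the test above the 30th percentile of mean level (log2 6.0), and a change passed at a limma adjusted p below 0.05. Of the 5 members, 2 were above this level (Ctsg and Mcpt8) and 3 below it.

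**Figure D1:**
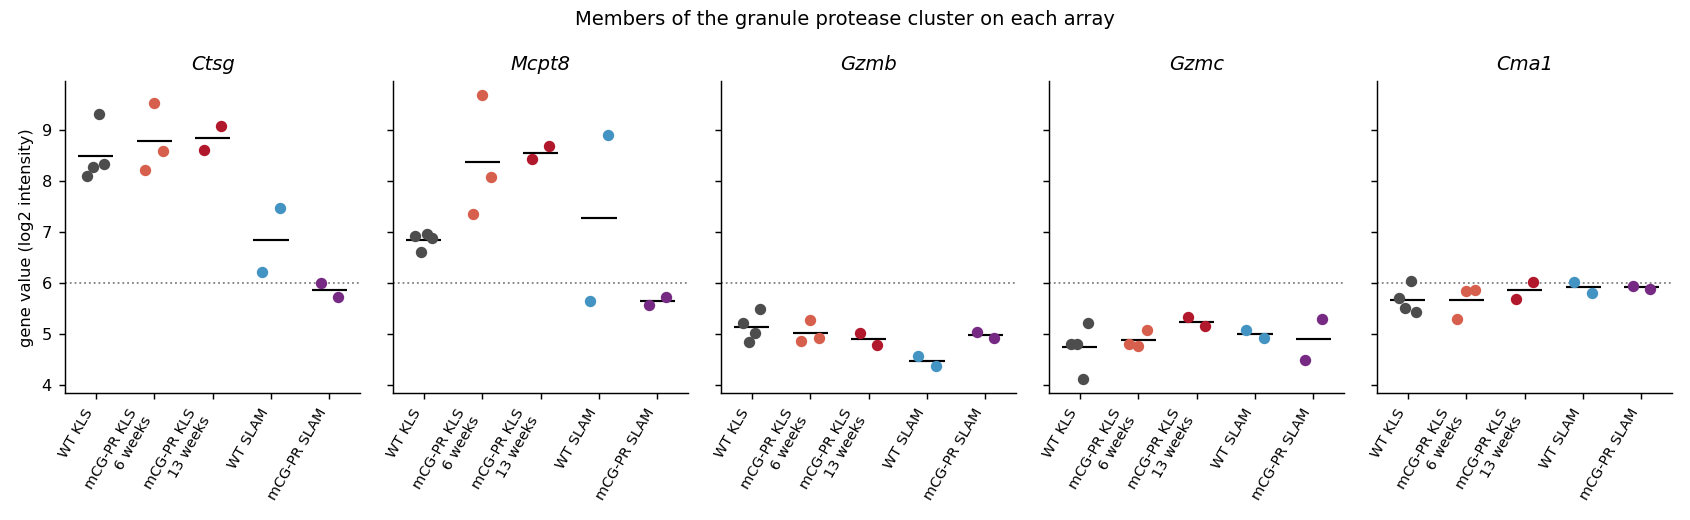
Log2 intensity of each member gene (y axis) on each array, by group (x axis), with points for arrays and bars for group means; the dotted line is the level above which genes were tested (log2 6.0). Ctsg lies between 8.10 and 9.54 on the KLS arrays and between 5.72 and 7.47 on the SLAM arrays, Mcpt8 is higher on the mCG-PR KLS arrays than on any WT KLS array, and Gzmb, Gzmc and Cma1 stay close to or under the line.

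Cathepsin G RNA was well above the tested level in KLS cells of both genotypes. Ctsg log2 values on the WT KLS arrays were 8.10, 8.27, 9.32 and 8.33. On the mCG-PR KLS arrays of 6 weeks they were 8.23, 9.54 and 8.60, and at 13 weeks 8.62 and 9.08. The groups overlap: WT replicate 3 is higher than 4 of the 5 mCG-PR arrays. Over both ages the mean was 8.81 ± 0.51 (SD, n = 5) against 8.50 ± 0.55 (SD, n = 4), a log2 change of 0.31 ± 0.31 (SE; limma adjusted p = 0.872). The change was 0.29 ± 0.37 at 6 weeks (limma adjusted p = 0.906), 0.34 ± 0.42 at 13 weeks (limma adjusted p = 0.884) and 0.06 ± 0.44 between the 13-week and 6-week mCG-PR arrays (limma adjusted p = 0.990). The median gene also lay higher, by 0.09 over both ages and 0.11 at 6 weeks, and relative to it the Ctsg changes were 0.22 and 0.17. The sign changed with the arrays kept. Against the WT arrays of 12 weeks alone it was -0.01 over both ages and -0.04 at 6 weeks, against those of 13 weeks alone 0.63 and 0.61, and with the second 6-week mCG-PR KLS array left out the 6-week value was -0.09. The 12-week WT arrays include the high replicate 3, without which the changes were 0.58 and 0.56, so the age of the controls and that array cannot be told apart.

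Mcpt8, the basophil protease encoded next to Ctsg, was higher on every mCG-PR KLS array than on any WT KLS array. Its log2 values on the WT KLS arrays were 6.92, 6.61, 6.97 and 6.89. On the mCG-PR arrays of 6 weeks they were 7.36, 9.69 and 8.09, and at 13 weeks 8.43 and 8.69. The WT arrays lay close together and the mCG-PR arrays of 6 weeks were spread over more than 2 log2 units. The mean over both ages was 8.45 ± 0.85 (SD, n = 5) against 6.85 ± 0.16 (SD, n = 4), which is 3.04-fold and a log2 change of 1.60 ± 0.52 (SE), with an unadjusted p of 0.00731 and a limma adjusted p = 0.494. Of 10584 genes tested, 376 (3.55%) had no overlap in this direction, which is the background for this separation. Measured from the median gene, Mcpt8 changed by 1.51.

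For the 6-week arrays there is no WT KLS array of the same age (12 to 13 weeks in WT). Age and genotype therefore cannot be told apart there. The 6-week arrays are also part of every comparison over both ages, so age is not held equal in those either. At 6 weeks the Mcpt8 change was 1.53 ± 0.61 (limma adjusted p = 0.707) and at 13 weeks 1.71 ± 0.69 (limma adjusted p = 0.644), with 0.18 ± 0.73 between the ages (limma adjusted p = 0.980). Over both ages its adjusted p ranged from 0.077 with the compared groups alone to 1.0 over the alternatives, and the change from 1.29 to 1.88, positive in all 24. Mcpt8 passed in a fit of only the 13-week mCG-PR KLS arrays and all 4 WT KLS arrays, aged 12 or 13 weeks (limma adjusted p = 0.00402). It was 1 of 12 genes (0.113%) that passed in that fit. That fit holds neither the 6-week mCG-PR KLS arrays nor the SLAM arrays; the SD of Mcpt8 was 1.19 in the former and 2.30 in WT SLAM. Without mCG-PR KLS 6 weeks replicate 2, the highest array for Mcpt8, the 6-week change was 0.87.

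In these comparisons 0.0% of 10584 genes passed over both ages, 0.00945% at 6 weeks, 0.0% at 13 weeks and 0.0% between the ages. The 0 members called stand against that background. With limma 760 genes had an unadjusted p under 0.05 over both ages, Mcpt8 among them.

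The probe sets of Mcpt8 changed alike, and those of Ctsg stayed near 0. All 6 Mcpt8 probe sets had a positive change over both ages, from 1.38 to 2.14, and 4 of them had an unadjusted p under 0.05. On 5 of the 6, every mCG-PR array was above every WT array, against 3.14% of all probe sets tested. The smallest p belonged to probe set 5289434. Its values were 6.33, 6.20, 5.85 and 6.57 in WT KLS, 7.16, 8.51 and 7.62 at 6 weeks and 7.72 and 8.53 at 13 weeks, with a change of 1.67 ± 0.35 (limma unadjusted p = 3.80e-04, adjusted p = 0.922). The 10 Ctsg probe sets changed by -0.12 to 0.40, with 9 positive, and 0 had an unadjusted p under 0.05. Probe sets of a gene share their RNA and are not independent replicates.

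**Figure D2:**
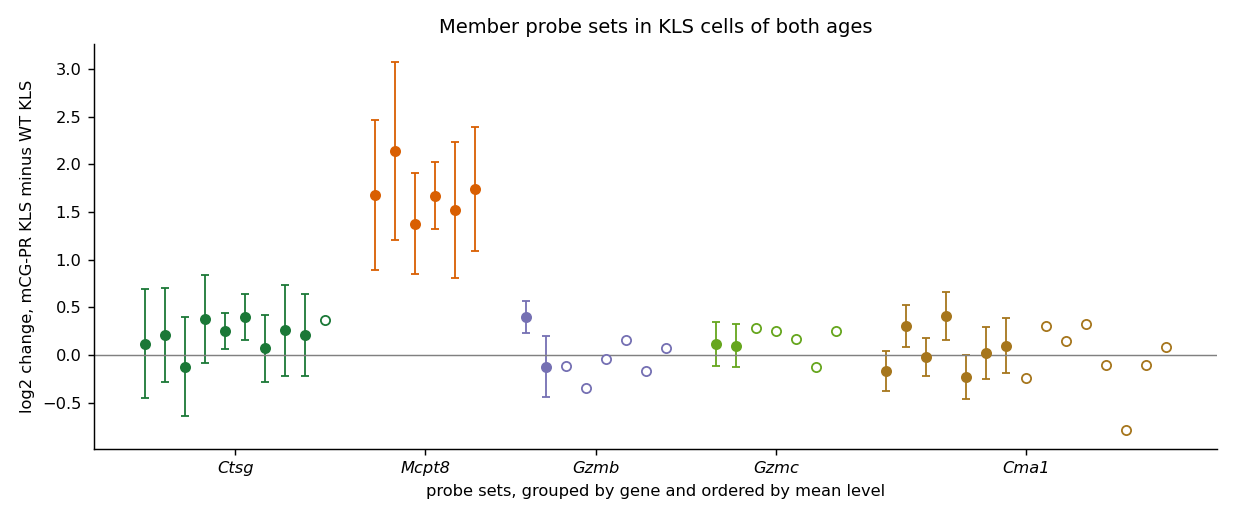
Log2 change of each member probe set between mCG-PR KLS of both ages and WT KLS (y axis), grouped by gene (x axis); filled points with bars are tested probe sets with the SE, open points lie below the tested level. The 6 Mcpt8 probe sets lie between 1.38 and 2.14, the 10 of Ctsg between -0.12 and 0.40.

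Of the 46 member probe sets, 26 were above the tested level of log2 5.81, and 0 were called in any comparison among KLS cells. The background was 0.000686% of 145878 probe sets over both ages, 0.0% at 6 weeks, 0.0% at 13 weeks and 0.0% between the ages. A change of different size along a gene was tested with the F test of limma's diffSplice. It called 0 members, against 0.0356% of 14051 genes, with an unadjusted p of 0.999 for Ctsg and 0.989 for Mcpt8 over both ages (adjusted p = 1.0 for each of the 5 members).

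By the median of their probe sets, Gzmb, Gzmc and Cma1 were below the tested level as means over all arrays. Gzmb values ran from 4.37 to 5.49 over the 13 arrays, Gzmc values from 4.11 to 5.33 and Cma1 values from 5.29 to 6.03. Over both ages their KLS groups overlapped, with differences of -0.18 for Gzmb, 0.29 for Gzmc and 0.07 for Cma1. Pairs of Mcpt8 probe sets had a median correlation over the 13 arrays of 0.87 and pairs of Ctsg probe sets one of 0.86. For Gzmb, Gzmc and Cma1 the medians were 0.09, 0.12 and 0.05, so that their probe sets hardly varied together. Of their probe sets, 2 of 8 for Gzmb, 2 of 7 for Gzmc and 7 of 15 for Cma1 were above the tested level, with means over all arrays of up to 8.25, 9.26 and 8.34. The gene medians do not describe these probe sets. The granzymes of the cluster resemble each other in sequence, and whether probes of one also bind another was not tested.

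The order of genes along the chromosome allows the neighbours to be read beside Ctsg. Between Cma1 and Gzmb the RefSeq table lists 15 named protein-coding genes, of which 12 had probe sets and 3 were tested. Of the 5 genes on each side of the cluster, 8 had probe sets and 6 were tested. In KLS cells over both ages 0 of these 9 tested genes passed, where 0.0% of all genes did. Of the 9, Mcpt8 and Gzme were higher on every mCG-PR KLS array than on any WT KLS array, where 3.55% of all tested genes were. Gzme entered the test through the groups where it is higher, so its separation is a description only. Mcpt1 was also higher on every array but below the tested level, so that share is not a background for it. In the window 0 genes were lower on every array.

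Gzme, a granzyme gene on the other side of Ctsg, had WT KLS values of 4.88, 6.09, 5.53 and 5.59. On the mCG-PR KLS arrays they were 6.78, 6.69 and 6.20 at 6 weeks and 6.51 and 6.25 at 13 weeks. The lowest mCG-PR array lies 0.11 above the highest WT array, and the change was 0.96 ± 0.22 (limma unadjusted p = 4.94e-04, adjusted p = 0.324). The WT mean of 5.52 is below the tested level of 6.0, and Gzme entered the test through the groups where it is higher, so the size and the p are given as a description only. It rests on 3 probe sets. Mcpt1, a mast cell chymase gene, was below the tested level, at 4.32 ± 0.24 (SD, n = 4) in WT and 4.90 ± 0.30 (SD, n = 5) in mCG-PR KLS. Gzmd, Gzmg, Gzmn and Gzmf, further granzyme genes between Gzme and Gzmc, differed by -0.06 to 0.15, and Mcpt2 by -0.40, none of them above the tested level. Of the genes outside the cluster, the largest change was that of the centrosome gene Cenpj, 0.51 ± 0.16 (limma adjusted p = 0.494), and the others lay between -0.14 and 0.35.

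**Figure D3:**
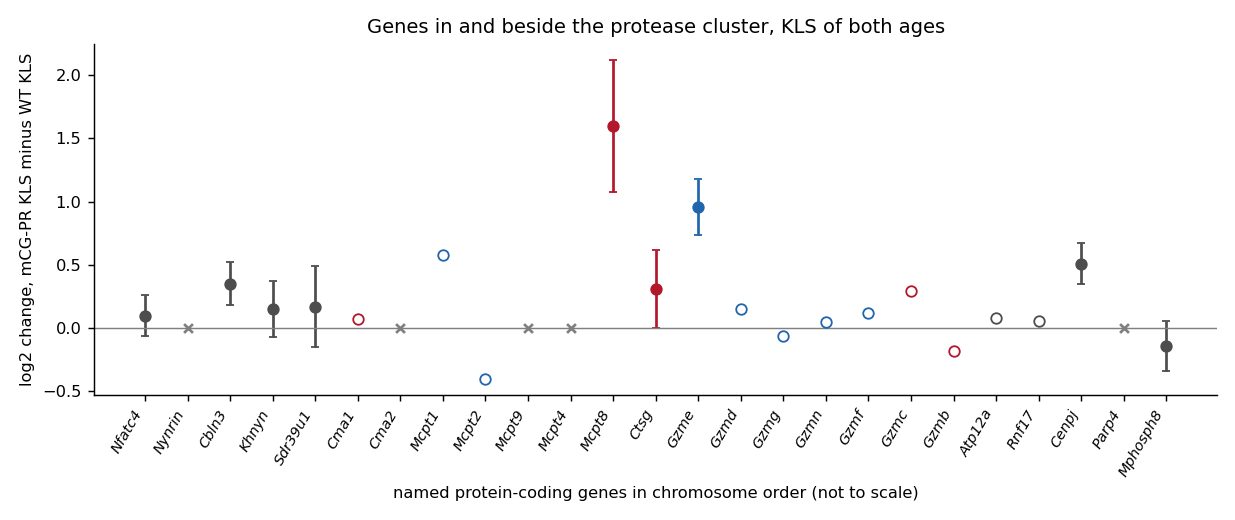
Log2 change between mCG-PR KLS of both ages and WT KLS (y axis) for 25 named protein-coding genes in chromosome order (x axis, not to scale); members are red, other cluster genes blue and flanking genes grey. Filled points with SE bars were tested, open points lie below the tested level, and crosses at 0 mark genes with no probe set. Mcpt8 (1.60) and Gzme (0.96) are the highest of the 20 genes with a value, and Ctsg is at 0.31. Gzme entered the test through the groups where it is higher and is shown as a description only. The granzyme genes Gzmd, Gzmg, Gzmn and Gzmf lie between -0.06 and 0.15.

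Ctsg was next set beside primary granule genes encoded elsewhere, to ask whether it differed from its granule partners in cells that carry the fusion at the Ctsg locus. Mpo encodes myeloperoxidase and Prtn3 proteinase 3, both stored in the same granules as cathepsin G. Ctsg minus the mean of Mpo and Prtn3 was -1.29, -0.93, -0.31 and -0.83 on the WT KLS arrays. On the mCG-PR KLS arrays it was -1.22, -0.67 and -1.19 at 6 weeks and -0.72 and -0.97 at 13 weeks. The ranges overlap, with means of -0.84 ± 0.40 (SD, n = 4) and -0.96 ± 0.26 (SD, n = 5). The difference of -0.12 did not pass a two-sided exact permutation test (p = 0.611, where the smallest p possible is 0.00794). Its sign turned to 0.06 without WT KLS replicate 3 and to 0.15 against the 13-week WT arrays alone.

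SLAM cells of WT mice held less Ctsg RNA than WT KLS cells. Its log2 values were 6.22 and 7.47 on the 2 WT SLAM arrays, both below the lowest WT KLS value of 8.10. The mean was 6.85 ± 0.88 (SD, n = 2) against 8.50 ± 0.55 (SD, n = 4), which is 3.15-fold lower, a log2 change of -1.66 ± 0.42 (SE; limma adjusted p = 0.0230). This was the only member called, of 2 tested, where 11.6% of all genes passed. The call was lost without WT KLS replicate 3 (-1.38, limma adjusted p = 0.0531). It was also lost with array weights (adjusted p = 0.126) and with WT KLS arrays of 1 age alone (12 weeks adjusted p = 0.0529, 13 weeks adjusted p = 0.129). Without WT SLAM replicate 2, the array with neutrophil genes, the change was -2.28 (adjusted p = 0.00957), in a fit where 11.6% of all genes passed. The WT SLAM mice were 6 weeks old and the WT KLS mice 12 to 13, so that age and population cannot be told apart here.

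The changes of the 10 Ctsg probe sets ran from -4.09 to 0.33, and whether they differ from each other was not tested in this comparison. Of 9 tested, 3 passed, all lower in SLAM, where 5.5% of all probe sets passed. Probe set 4783294 read 3.61 and 5.84 in WT SLAM against 8.43 to 9.62 in WT KLS, a change of -4.09 ± 0.65 (limma adjusted p = 0.00548). Probe set 5542324 read 5.08 and 7.54 against 9.60 to 10.90 (-3.73 ± 0.75, limma adjusted p = 0.0158), and 5176951 changed by -2.71 ± 0.65 (limma adjusted p = 0.0333). Probe sets 4873545 (-0.29 ± 0.25) and 4605174 (-0.34 ± 0.30) did not pass. Some of these WT SLAM values, 3.61 and 5.08 among them, are below the tested level of 5.81, where the size of a change is not well measured. The exon each probe set queries was not analysed here.

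Mcpt8 did not have 1 level in WT SLAM cells. Its 2 arrays read 5.65 and 8.90, the second among the highest values of the series and the first among the lowest. The first is below the tested level of 6.0, where the size of a change is not well measured. The mean change from WT KLS was 0.43 ± 0.69 (limma adjusted p = 0.732). It was -1.20 without WT SLAM replicate 2 and 2.05 without replicate 1, so that the sign rests on which array is kept. Each of these fits holds a single WT SLAM array, so only the size is given. The array with 8.90 is the one that stands apart in neutrophil genes, with Ngp at 12.05 against 9.27 on the other. The basophil protease gene Prss34 was at 7.92 against 6.23 and Ms4a2, part of the IgE receptor of basophils and mast cells, at 6.14 against 3.60. Of the 11 measured genes of the mast cell and basophil list, 9 were higher on this array and 2 lower. Among the 9 were Hdc at 5.95 against 5.90 and Cpa3 at 5.14 against 4.81. The 2 lower were Tpsb2 at 6.36 against 6.61 and Cyp11a1 at 5.79 against 5.98. The part of these cells in the Mcpt8 value was not tested.

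In mCG-PR SLAM cells both Ctsg and Mcpt8 were low on both arrays. Ctsg read 6.00 and 5.72, below both WT SLAM arrays, a mean of 5.86 ± 0.20 (SD, n = 2) and a log2 change of -0.99 ± 0.48 (limma adjusted p = 0.301). Mcpt8 read 5.56 and 5.73, a change of -1.63 ± 0.80 (limma adjusted p = 0.306) that was -0.01 without WT SLAM replicate 2. Without WT SLAM replicate 1 it was -3.25 and passed (adjusted p = 0.00915), in a fit where 7.79% of all genes did. Both mCG-PR SLAM values of Mcpt8, its WT SLAM replicate 1 value (5.65) and the Ctsg mean of 5.86 are below the tested level of 6.0. Mcpt8 entered the test through the groups where it is higher. The sizes and p of these changes, also with an array left out, are therefore given as a description only. With all arrays 0 members passed, where 2.6% of all genes did. Of 11 late neutrophil genes tested in that comparison, 2 passed, where 2.6% of all genes did. Ngp (-3.06 ± 0.75, limma adjusted p = 0.0497) and Ltf (-2.50 ± 0.49, limma adjusted p = 0.0211) fell. Over the 11 genes 9 changes were negative and 2 positive. The part of neutrophil cells in the values of Ctsg and Mcpt8 was not tested. The mean of the Y-linked genes was 4.28 and 4.23 in mCG-PR SLAM against 8.21 and 7.93 in WT SLAM, and the labels give no sex. The mice were 7 weeks old in mCG-PR SLAM and 6 in WT SLAM. Genotype, Y-linked level and age therefore cannot be told apart between the SLAM groups.

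Of 26 tested member probe sets, 2 passed between mCG-PR and WT SLAM, where 4.17% of all probe sets did. The Ctsg probe set 5523937 read 7.08 and 7.96 in WT SLAM and 3.99 and 1.81 in mCG-PR SLAM, a change of -4.62 ± 0.82 (limma adjusted p = 0.0111). Both mCG-PR SLAM values are below the tested level of 5.81, so the size of this change is not well measured. The Gzmb probe set 4855120 read 9.01 and 9.11 against 8.03 and 7.84, a change of -1.12 ± 0.24 (limma adjusted p = 0.0267). It had also risen from WT KLS (7.85 to 8.01) to WT SLAM, by 1.14 ± 0.21 (limma adjusted p = 0.0112), while the median over all Gzmb probe sets was lower in WT SLAM, at 4.47 ± 0.14 (SD, n = 2) against 5.15 ± 0.28 (SD, n = 4). The signs of the probe set and of the gene median were opposite in this comparison, and the median was below the tested level.

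**Figure D4:**
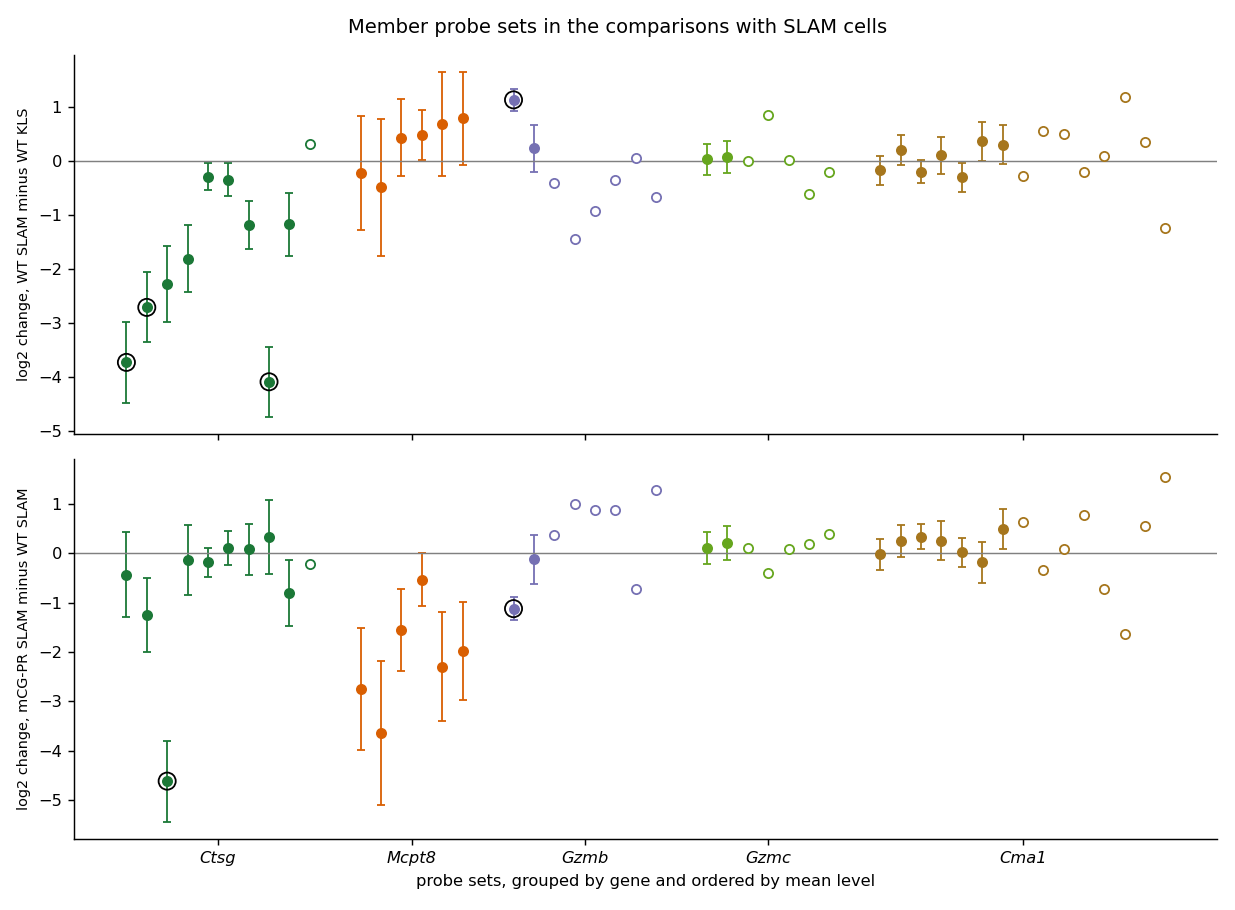
Log2 change of each member probe set (y axes) from WT KLS to WT SLAM (top) and from WT SLAM to mCG-PR SLAM (bottom), grouped by gene (x axis); filled points with bars are tested probe sets with the SE, open points lie below the tested level, and a black ring marks an adjusted p below 0.05. In the top panel 3 Ctsg probe sets and 1 Gzmb probe set are ringed, in the bottom panel 1 of each.

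The genotype effect in SLAM cells was tested against that in KLS cells as an interaction. It was -1.30 ± 0.56 for Ctsg (limma adjusted p = 0.276) and -3.23 ± 0.92 for Mcpt8 (limma adjusted p = 0.108), and neither passed, where 1.07% of all genes did. For Mcpt8 it was -4.85 without WT SLAM replicate 1 and -1.61 without replicate 2. Each of these fits holds a single WT SLAM array, so only the size is given. The same 2 probe sets passed as between the SLAM groups, where 1.86% of all probe sets did: 5523937 of Ctsg (-4.51 ± 0.94, limma adjusted p = 0.0315) and 4855120 of Gzmb (-1.53 ± 0.31, limma adjusted p = 0.0264). The Mcpt8 values in mCG-PR SLAM (5.56 and 5.73) and the Ctsg mean there (5.86) are below the tested level of 6.0. The sizes of the interactions of these genes are therefore not well measured. All these comparisons share the WT SLAM or WT KLS arrays. The SLAM groups also differ in Y-linked genes and in age, which cannot be told apart from genotype.

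In level, the groups stood in the order mCG-PR KLS of 13 weeks, mCG-PR KLS of 6 weeks, WT KLS, WT SLAM and mCG-PR SLAM for Ctsg, with means of 8.85, 8.79, 8.50, 6.85 and 5.86. The first 3 overlap, and of the neighbours in this order the step from WT KLS to WT SLAM passed the test. For Mcpt8 the order was the same for the mCG-PR KLS groups (8.56 and 8.38), followed by WT SLAM (7.28 ± 2.30, SD, n = 2), WT KLS (6.85) and mCG-PR SLAM (5.65), and no step between neighbours in it that was tested passed.

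Across the 13 arrays Ctsg and Mcpt8 had a Pearson correlation of 0.74, and of 0.67 over the 9 KLS arrays. Arrays share the sorted population and the yield of each preparation, so such values describe the series only. The genes most like Ctsg among those above the tested level were Apool, Mpo, Jmy, the mitotic kinesin gene Cenpe and the cyclin-dependent kinase inhibitor gene Cdkn2c, with correlations of 0.97 to 0.98 over 13 arrays and 0.74 to 0.89 over the KLS arrays. Those most like Mcpt8 were the lysosomal protease gene Ctsz (0.95), Sh3bgrl3 (0.93), the protein disulfide isomerase gene P4hb (0.92), the cadherin gene Cdh1 (0.92) and the glycolysis gene Gpi1 (0.92). Over the KLS arrays alone these were 0.80 to 0.96. Of these 10 genes, 0 passed between mCG-PR and WT KLS of both ages, where 0.0% of all genes did.

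**Figure D5:**
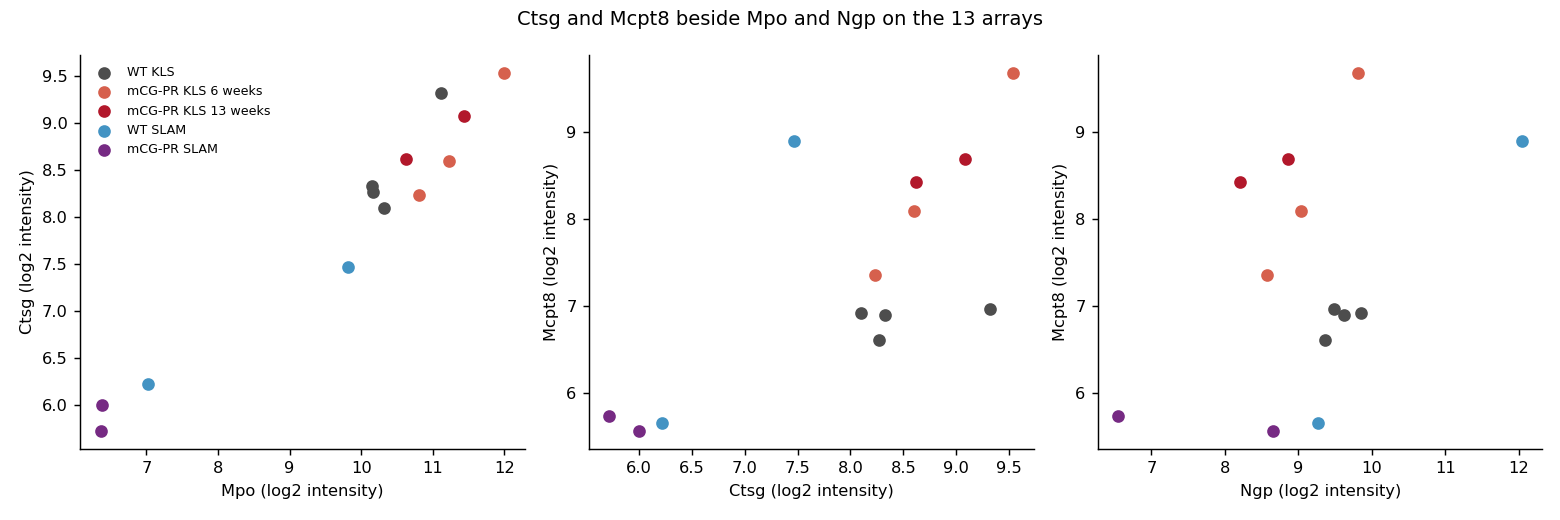
Log2 intensity of Ctsg against Mpo (left), Mcpt8 against Ctsg (middle) and Mcpt8 against Ngp (right) on the 13 arrays, coloured by group. Ctsg follows Mpo across KLS and SLAM arrays (r = 0.98 over 13 arrays), 1 WT SLAM array has high Mcpt8 (8.90) at the highest Ngp (12.05), and the mCG-PR KLS arrays, higher in Mcpt8 than the WT KLS arrays, have Ngp values of 8.21 to 9.81 against 9.36 to 9.86.

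The other genes of granule protease biology were read from lists. None of the lists held a gene that passed between mCG-PR and WT KLS of both ages, where 0.0% of 10584 genes did. As no gene at all passed there, the 0 for each list is not a result about the list. The median change of all genes was 0.09. Of 9 granule proteases encoded elsewhere, 7 were tested, with a median of 0.24. They include the mast cell carboxypeptidase gene Cpa3, at 7.67 ± 1.09 (SD, n = 5) against 6.46 ± 0.46 (SD, n = 4), a change of 1.21 ± 0.49 (limma adjusted p = 0.621), and Prtn3 (0.07 ± 0.16). Of 18 genes of protease activation, packaging and inhibition, 15 were tested, with a median of 0.01. Among them were Cst7, an inhibitor of the cathepsins that activate granule proteases (0.94 ± 0.28, limma adjusted p = 0.454), Srgn, the proteoglycan that holds proteases in granules (-0.02 ± 0.15), and Serpinb1a, an inhibitor of neutrophil proteases (-0.06 ± 0.22). Of 13 transcription factor genes for these lineages, 11 were tested, with a median of 0.07, among them Myb (0.04), Cebpa (0.11) and Runx1 (0.20). Of 10 primary granule genes 8 were tested, with a median of 0.02 and Mpo at 0.78 ± 0.43 (limma adjusted p = 0.749).

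In WT SLAM against WT KLS, where 11.6% of all genes passed, the primary granule list gave 1 call of 8, a share near that background, with 4 positive and 4 negative changes and a median of 0.10. The called gene was Mpo, which fell by 2.02 ± 0.58 (limma adjusted p = 0.0385). Of 15 tested activation and inhibition genes, 4 fell and 1 rose, and over all of them 7 changes were positive and 8 negative. Serpinb1a (-2.30 ± 0.29, limma adjusted p = 5.62e-04), Cst7 (-2.18 ± 0.38, adjusted p = 0.00339), the granule sorting gene Ap3b1 (-0.92 ± 0.23, adjusted p = 0.0231) and the lysosome trafficking gene Lyst (-0.61 ± 0.18, adjusted p = 0.0417) were lower. Serpina3g, a serpin of stem cells, rose by 2.74 ± 0.19 (limma adjusted p = 3.34e-06). Of 7 proteases elsewhere, Gzma fell (-1.44 ± 0.32, limma adjusted p = 0.0118). Of 11 transcription factor genes, Myb fell (-0.75 ± 0.20, limma adjusted p = 0.0262) and Gata2 rose (0.76 ± 0.22, limma adjusted p = 0.0399). Within the cluster, Gzme read 7.02 and 6.50 in WT SLAM against 4.88 to 6.09 in WT KLS, a group whose mean lies below the tested level. Between the SLAM groups Ndst2, an enzyme of heparin synthesis, rose (1.07 ± 0.22, limma adjusted p = 0.0227) and the lysosomal protease gene Ctsl fell (-1.16 ± 0.26, limma adjusted p = 0.0353), the 2 of 15 that passed in that comparison, where 2.6% of all genes did.

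Markers of the cells that normally hold these proteases were read beside them, as the mean log2 value of a list on an array. For mast cells and basophils (11 of 12 genes measured, 8 tested) the arrays ran from 5.91 to 6.40 in WT KLS and from 6.17 to 6.80 in mCG-PR KLS. They read 5.99 and 6.64 in WT SLAM and 6.04 and 6.32 in mCG-PR SLAM. Of the 8 tested genes, 0 passed in KLS cells, where 0.0% of all genes did. Their median change was 0.13, with 5 positive and 3 negative. In WT SLAM against WT KLS, where 11.6% of all genes passed, 2 of the 8 passed. These were Gata2 and the monoamine transporter gene Slc18a2 (1.40 ± 0.26, limma adjusted p = 0.00493), both higher. Over the 8 genes 5 changes were positive and 3 negative, among the latter Cpa3 (-1.49 ± 0.64, limma adjusted p = 0.155). Hdc, the enzyme that makes histamine, was at 6.62 ± 0.45 (SD, n = 5) in mCG-PR KLS against 5.94 ± 0.33 (SD, n = 4) in WT KLS. This is a change of 0.69 ± 0.22 (limma adjusted p = 0.494), and Ms4a2 was below the tested level at 5.30 against 4.43. Both are named after their values were seen. Negative in KLS were Hpgds, a prostaglandin synthase gene (-0.30), Fcer1a, a chain of the IgE receptor (-0.29, below the tested level), Slc18a2 (-0.15) and Gata2 (-0.06). The array with the highest Mcpt8 in KLS, mCG-PR 6 weeks replicate 2, was also the highest KLS array for Cpa3 (9.61), Ms4a2 (6.77), Hdc (7.21) and Mpo (12.00). This was not particular to mast cell and basophil genes. The array was also the highest in KLS for the means of primary granule (9.55), NK and T cell (6.47) and late neutrophil genes (8.79). It was not for those of stem and progenitor markers (9.04) and of B and erythroid genes (6.47).

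For NK and T cells (14 genes, 7 tested) the arrays ran from 5.83 to 6.34 in WT KLS and from 6.04 to 6.47 in mCG-PR KLS, and from 5.48 to 5.77 in SLAM cells. In WT SLAM against WT KLS, where 11.6% of all genes passed, 2 of the 7 passed, both lower. These were Gzma and Nkg7, a gene of cytotoxic granules (-2.20 ± 0.32, limma adjusted p = 0.00134). Over the 7 genes 2 changes were positive and 5 negative. For late neutrophil cells (11 of 12 genes, 11 tested) the arrays ran from 8.41 to 8.50 in WT KLS and from 7.88 to 8.79 in mCG-PR KLS. The median change was -0.28, and 0 genes were called, where 0.0% of all genes were. In WT SLAM against WT KLS 1 of the 11 passed, where 11.6% of all genes did. This was the antimicrobial peptide gene Camp, which rose (1.34 ± 0.38, limma adjusted p = 0.0368). Of the 11 changes 10 were positive and 1 negative. The list mean was 10.24 on WT SLAM replicate 2 and 8.24 on replicate 1. For B and erythroid cells (5 of 8 genes, 5 tested) the arrays ran from 6.41 to 6.76 in WT KLS and from 6.37 to 6.90 in mCG-PR KLS. Of the 10 stem and progenitor markers, all tested, 0 passed in KLS cells, where 0.0% of all genes did, with a median of -0.36. Between the SLAM groups 1 of the 10 passed, where 2.6% of all genes did. This was Flt3, higher in mCG-PR SLAM (0.87 ± 0.21, limma adjusted p = 0.0444). Over the 10 markers 6 changes were positive and 4 negative, among the latter Slamf1 (-1.16 ± 0.33, limma adjusted p = 0.0833). The part of the cell types of these lists in the Mcpt8 change was not tested.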

How the data were processed

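Deposited values are intensities on a linear scale, 1 for each probe set of each array; the submitters' processing notes name RMA and mm9 and no settings. RNA input was 20 ng per array, per the labels' protocols. Log2 was taken with no further scaling. Of 229581 probe sets, 208397 were listed with 1 gene and used, 3965 with several and 17219 with none. Symbols were updated through the RefSeq table of GRCm38.p6 (14132 current, 2105 updated, 62 not found); no coordinates of that table were joined to the arrays. A gene was the median of at least 3 probe sets (15121 genes). Genes above the 30th percentile (10584) and, separately, probe sets above it (145878) were fitted in R 4.3.3 by limma, version 3.58.1, with its functions lmFit, contrasts.fit and eBayes (two-sided), all 13 arrays in 5 groups, or 4 with the mCG-PR KLS ages merged, with Benjamini-Hochberg adjustment. Values after ± are standard errors unless marked SD. The procedure was tested on simulated data.

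The members and lists were chosen with earlier results of these data known. Named were the members, the other cluster genes and 5 genes on each side, up to 4 genes of highest mean level per list, and the 5 genes most correlated with each tested member. Hdc, Cst7, Serpinb1a, Ms4a2, Hpgds, Fcer1a, Tpsb2, Cyp11a1, Ltf, Camp, Lyst, Ctsl, Ndst2, Cd48, Slamf1, Eif2s3y and Kdm5d were added after their values were seen. The lists cover proteases elsewhere, activation and inhibition, transcription factors, primary granules, mast cells and basophils, NK and T cells, late neutrophils, B and erythroid cells, and stem and progenitor markers. Prtn3, Prss57, Ctsc, Cpa3, Tpsab1, Tpsb2, Prss34, Gzma and Gata2 stand in more than 1 list. The number of arrays limits the precision.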

Additional observations from a re-analysis of the deposited data

Results flagged for a closer look

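For 2 probe sets the genotype effect differed between SLAM and KLS cells by the interaction test (limma). The Ctsg probe set 5523937 differed by -4.51 ± 0.94: it changed by -4.62 between the SLAM genotypes and by -0.12 between the KLS genotypes of both ages. Its mCG-PR SLAM values, 3.99 and 1.81, were the lowest of its 13 arrays and below the tested level of 5.81, so the size of the difference is not well measured. The Gzmb probe set 4855120 differed by -1.53 ± 0.31, with -1.12 in SLAM and 0.40 in KLS cells. Each rests on 2 arrays per SLAM group. These groups also differ in Y-linked genes and in age, which cannot be told apart from genotype. No array stood apart from its group in the 12 checks of members and of Ctsg relative to its partners over the KLS groups (n = 0).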

How the results depend on the processing

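Calls of members changed with the setting. With the compared groups alone, 1 member (Mcpt8) was called in mCG-PR KLS of 13 weeks. In WT SLAM against WT KLS, 0 members were called with the replicate block, with array weights and with WT KLS of 12 or of 13 weeks only. With the replicate number as a block the count of member probe sets called was 1 in WT SLAM against WT KLS, 1 between the SLAM genotypes and 0 for the interaction; the numbers do not pair the arrays, since 21 same-number pairs had correlations of -0.07 to 0.08. For the interaction it was 1 without the filter and 1 with quantile normalization. Against WT KLS of 12 weeks only, the Ctsg change was -0.01 over both ages and -0.04 at 6 weeks. Ctsg relative to Mpo and Prtn3 was 0.15 against WT KLS of 13 weeks only.

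The cause of these shifts was not tested. Leaving out 1 array at a time gave -0.09 to 0.57 for Ctsg at 6 weeks, -0.23 to 0.43 for Ctsg and -0.33 to 0.84 for Mcpt8 between 13 and 6 weeks, -1.20 to 2.05 for Mcpt8 in WT SLAM against WT KLS, and -0.27 to 0.06 for Ctsg relative to Mpo and Prtn3. Members called ranged from 0 to 1 in WT SLAM against WT KLS, between the SLAM genotypes and for the interaction. Member probe sets called ranged from 3 to 7, from 1 to 6 and from 0 to 8 in the same comparisons; the highest counts came without WT SLAM replicate 2 (7) and without WT SLAM replicate 1 (6 and 8). Alternatives for these probe set counts that leave out arrays, and all those for the test of unequal change, were chosen after seeing the data. With 2 to 4 arrays per group, a change that did not pass may still be present.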
